A study of Mus musculus with 4 samples.

Results

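Hmgcs1, Idi1, Fdps, Sqle, Lss, Dhcr7, Srebf2 and Insig1 are 8 genes of cholesterol synthesis and of its control. They were taken by gene symbol from a table of 24026 genes, and all 8 were found. The cells were F123-ESCs, a male mouse embryonic stem cell line from the F1 of S129/Jae and Cast mice (genotype S129/CAST). In this line the maternal copy of each autosome is S129 and the paternal copy is CAST, so strain and parent of origin cannot be told apart. F123-ESCs were grown with LIF on feeder fibroblasts that no longer divide, passaged without feeders on gelatin-coated plates, and harvested untreated. Polyadenylated RNA was sequenced in 4 libraries, replicates 1 to 4, and there was no other group. All libraries came from 1 hybrid line, and the labels do not say whether they are separate cultures. The p-values below therefore measure only the spread between these libraries, which may be technical. The comparison that the design allows is between the S129 and the CAST allele of each gene within a library.

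Cells build cholesterol from acetyl-CoA through mevalonate, isoprenoids and squalene, which is closed into lanosterol and then trimmed to cholesterol. Cytosolic HMG-CoA synthase (Hmgcs1), isopentenyl diphosphate isomerase (Idi1), farnesyl diphosphate synthase (Fdps), squalene epoxidase (Sqle) and lanosterol synthase (Lss) act in this order, and 7-dehydrocholesterol reductase (Dhcr7) acts at the end. SREBP2, the product of Srebf2, is a transcription factor held in the membrane of the endoplasmic reticulum. When sterols are low it is released and raises the genes of the pathway, and Insig1, itself one of its targets, holds it back when sterols are high. None of the 8 genes encodes a protein that takes up cholesterol. Uptake was therefore described only from genes of a fixed list.

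Each gene has 8 RPKM values (reads scaled to the gene length and to the total of the column), for 2 alleles in 4 libraries. Only reads that cover a SNP between the strains enter them. Totals ran from 34120416 allele-assigned reads in replicate 4 to 56627972 in replicate 1. The embryonic stem cell markers Pou5f1, Sox2, Nanog, Zfp42 and Esrrb had means from 29.5 to 512 RPKM. Of 6 fibroblast markers that feeder cells would bring, 5 reached 1 RPKM, and their summed level was 178 to 224 RPKM per library, lowest in replicate 1. Most of it was Col1a2, whose 166 RPKM are 11.3 RPKM over all its exons. Of 4 primitive endoderm markers 3 reached 1 RPKM, with at most 3.31 RPKM, and no hepatocyte marker of 4 did. Their part in the results was not tested. In bulk RNA, fewer cells that express a gene and less RNA per cell cannot be told apart.

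All 8 genes were expressed from both alleles in all libraries, over a range of levels. As the mean of both alleles, Hmgcs1 (ENSMUSG00000093930) had 858, 945, 921 and 680.1 RPKM in replicates 1 to 4, above 99.5% of the genes of the table. Idi1 (ENSMUSG00000058258) stood at the other end with 6.13, 6.53, 6.68 and 4.35 RPKM, above 68.8% of them. Both genes had their lowest value in replicate 4. Fdps (ENSMUSG00000059743), whose product stands at the branch to sterols, ubiquinone and prenyl groups, had 108, 98.7, 94.4 and 100.2 RPKM. Sqle (ENSMUSG00000022351), which catalyses a rate-limiting step, had 19.0, 21.3, 22.0 and 18.3 RPKM. Fdps was highest in replicate 1, whereas Sqle was highest in replicate 3. Lss (ENSMUSG00000033105) had 212, 242, 234 and 205 RPKM, and Dhcr7 (ENSMUSG00000058454) had 28.5, 37.5, 39.3 and 31.8 RPKM. Of the control genes, Srebf2 (ENSMUSG00000022463) had 8.19, 9.98, 10.8 and 10.1 RPKM. Insig1 (ENSMUSG00000045294) had 37.3, 40.8, 37.3 and 28.8 RPKM. Dhcr7 and Srebf2 had their lowest value in replicate 1, and Insig1 in replicate 4.

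**Figure D1:**
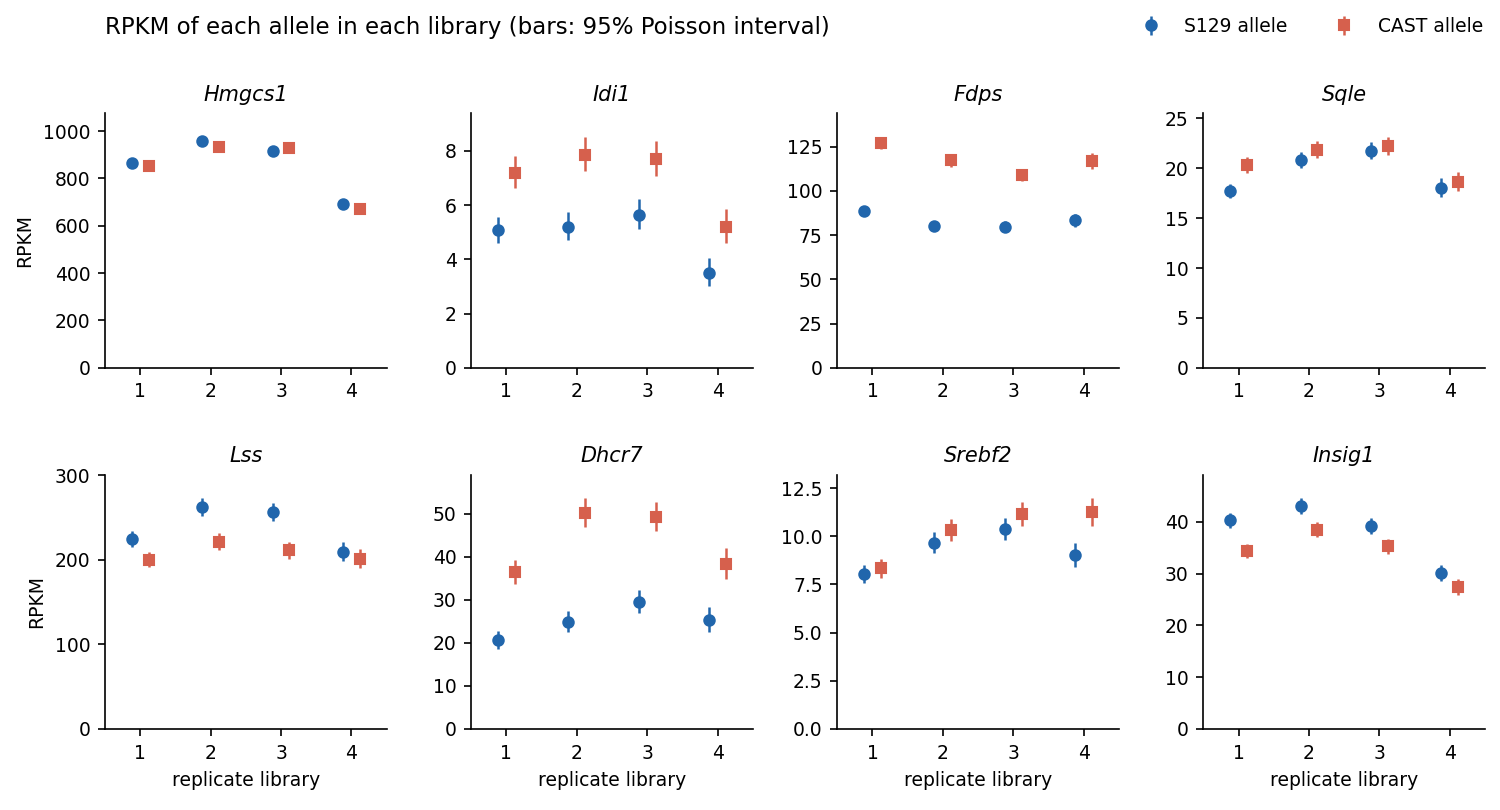
RPKM of the S129 allele (blue circles) and the CAST allele (red squares) of each gene in replicate libraries 1 to 4, with exact 95% Poisson intervals of the reads. CAST lies above S129 in all libraries for Idi1, Fdps and Dhcr7, S129 lies above CAST for Lss and Insig1, and Hmgcs1, Idi1 and Insig1 are lowest in replicate 4 on both alleles.

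The deposited RPKM of the 8 genes do not rest on comparable lengths. The steps between the values gave back the gene length that was used, and for 7 of the 8 genes it was that of the first transcript listed in GENCODE M21. For Hmgcs1 the length was 356 bp, against 4594 bp for all its annotated exons together. For Lss it was 352 bp against 10787 bp, and for Dhcr7 682 bp against 5817 bp. These 3 genes therefore had RPKM 12.9, 30.6 and 8.53 times as high as over all exons. The ratio was 3.04 for Fdps and from 1.15 to 1.44 for Idi1, Sqle, Srebf2 and Insig1. Over all exons, Hmgcs1 still led with 65.9 ± 9.3 RPKM (SD, n = 4 libraries), followed by Fdps with 32.9 ± 1.8 RPKM and Insig1 with 31.4 ± 4.5 RPKM. Sqle had 16.3 ± 1.4 RPKM on this scale, and the other 4 genes had between 4.02 and 7.28 RPKM. Lss moved from the second place to the fifth, and Dhcr7 from the fifth to the last. Neither length is that of the transcripts used in these cells, which was not measured here. Only reads that cover a SNP enter the values, so the level of a gene also depends on the SNPs it holds. Neither scale corrects for this, so the orders and percentages of genes below are of these values, not of RNA amounts.

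**Figure D2:**
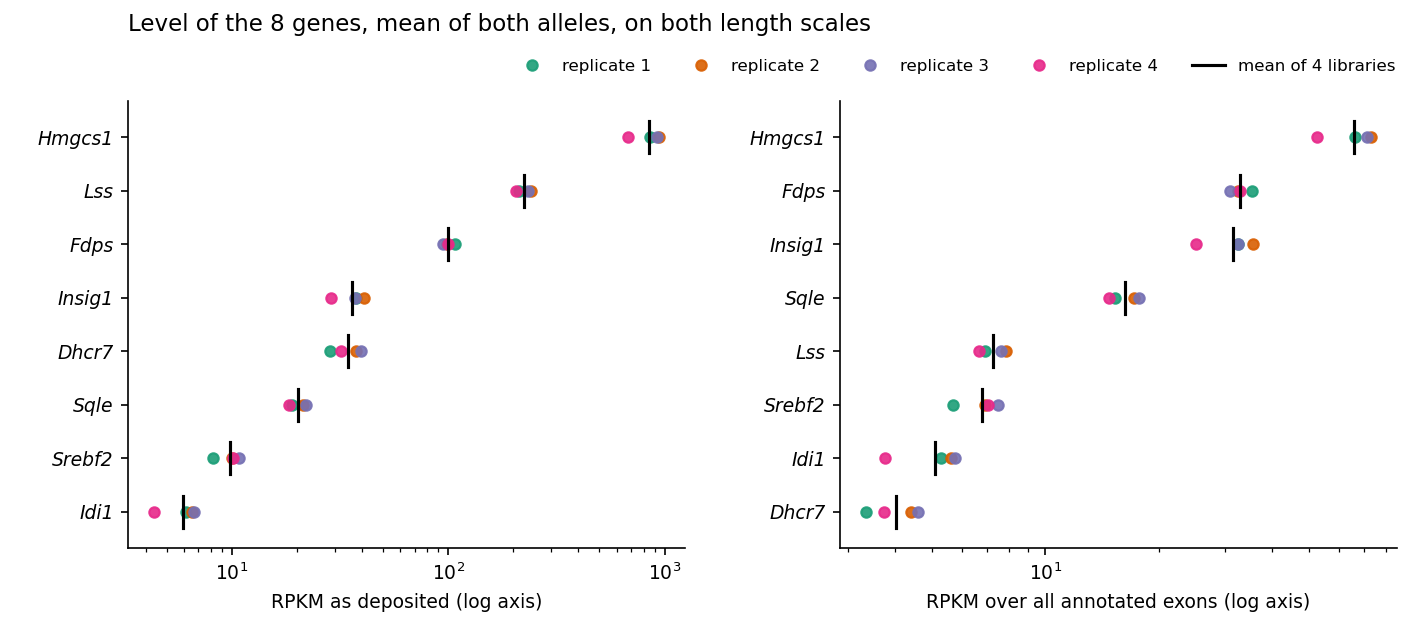
Level of each gene as the mean of both alleles on log axes, as deposited (left) and divided by the length of all annotated exons (right), with 1 point per library and a bar at the mean of 4 libraries. Hmgcs1 leads on both scales, with 851 and 65.9 RPKM, whereas Lss goes from 223 to 7.28 RPKM.

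Neighbours in the order of levels were set against each other within libraries. By deposited RPKM the order was Hmgcs1, Lss, Fdps, Insig1, Dhcr7, Sqle, Srebf2 and Idi1. Only Insig1 and Dhcr7 overlapped in their ranges over the libraries, with Insig1 higher in 2 of 4 libraries (log2 difference of level 0.07 ± 0.24, SD, n = 4; p = 0.75 and adjusted p = 0.75 in an exact permutation test that flips signs, two-sided). The other 6 pairs of neighbours kept their order in 4 of 4 libraries (p = 0.125 each in the same exact permutation test, adjusted p = 0.146 over 7 pairs). A p of 0.125 is the smallest that 4 libraries allow, so no pair could pass a threshold of 0.05. The pairs were formed from the mean levels of these same libraries, so a kept order describes the values and is no independent test. The order also carries the lengths used: Fdps, with 32.9 RPKM over all exons, lay above Lss, with 7.28 RPKM, on that scale. Over all exons, the ranges of neighbours overlapped for Fdps and Insig1, for Lss and Srebf2, for Srebf2 and Idi1, and for Idi1 and Dhcr7.

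The alleles of a gene share its length, so their difference does not depend on it. Of all 12869 autosomal genes tested, limma called 61.4% at an adjusted p under 0.05, with 28.9% higher on S129 and 32.5% higher on CAST. Against this background, 5 of the 8 genes were called, 2 higher on S129 and 3 higher on CAST, a share of 62.5%. Their median absolute log2 difference was 0.18, beside 0.29 for all autosomal genes tested. The alleles' ranges over the libraries did not overlap for 2 of the 8 genes, Fdps and Dhcr7, whereas this held for 43.6% of all autosomal genes tested. In the share of calls, the 8 genes were thus close to the rest of the genome. With the median of neighbouring genes within 10 Mb taken out, 5 of the 8 were again called, beside 56.8% of all autosomal genes.

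Dhcr7, at chr7:143823145-143848410 in mm10, differed most between the alleles. Its product reduces 7-dehydrocholesterol, which is also the precursor of vitamin D. The S129 allele had 20.6, 24.8, 29.4 and 25.4 RPKM in replicates 1 to 4, and the CAST allele had 36.4, 50.2, 49.2 and 38.3 RPKM. All CAST values lay above all S129 values. The log2 difference (S129 minus CAST, on the log2(RPKM+0.1) scale) was -0.79, with a standard error of 0.077, a 1.73-fold higher level on CAST (adjusted p = 0.00124 from limma, CAST higher in 4 of 4 libraries). Its S129 share of the allele-assigned reads ran from 34.1% (exact 95% binomial interval 31.5% to 36.7%, of 1277 reads) in replicate 2 to 40.8% (37.2% to 44.4%, of 738 reads) in replicate 4. The median gene within 10 Mb had a share of 51.3%. With the median of the 106 neighbouring genes taken out, the difference of Dhcr7 was -0.77 (adjusted p = 0.00146 from limma).

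Idi1, at chr13:8885501-8892451, was also higher on CAST. S129 values were 5.06, 5.20, 5.65 and 3.49 RPKM, and CAST values were 7.20, 7.86, 7.70 and 5.20 RPKM. CAST was higher within every library, although its value in replicate 4 lay among the S129 values of the other libraries. The log2 difference was -0.52 with a standard error of 0.039 (adjusted p = 0.000556 from limma), or 1.44-fold. The S129 share stayed between 40.8% and 43.3%, on 447 to 1048 reads per library. Genes within 10 Mb had a median difference of 0.01, and Idi1 stayed at -0.54 with it taken out (adjusted p = 0.000545 from limma). Idi2, a paralog of Idi1, had 0.125 ± 0.035 RPKM (SD, n = 4) and was under the filter of 1 RPKM summed over both alleles.

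Fdps, at chr3:89093588-89101959, had 88.5, 80.2, 79.8 and 83.4 RPKM on S129 and 127, 117, 109 and 117 RPKM on CAST. Its alleles did not overlap. The log2 difference was -0.50 with a standard error of 0.033 (adjusted p = 0.000394 from limma), a 1.41-fold higher level on CAST in 4 of 4 libraries. This gene lies in a stretch of chromosome 3 where most genes were higher on CAST: the 202 genes tested within 10 Mb had a median difference of -0.85 and a median S129 share of 36.2%. Fdps, with a share of 42.3% ± 0.74 (SD, n = 4), was less shifted than its neighbours. With their median taken out, its difference changed sign to 0.35 (standard error 0.037, adjusted p = 0.00189 from limma). It was also positive with the median of all genes tested on chromosome 3 taken out (0.22, adjusted p = 0.00567 from limma). The median of the whole chromosome was thus on the side of CAST too. Whether the shift of the region or of the chromosome enters the value of Fdps was not tested. Pmvk, which encodes phosphomevalonate kinase and lies on the same chromosome among neighbours with a median of -0.86, was higher on S129, with 161 RPKM on S129 and 127 RPKM on CAST (log2 difference 0.34, standard error 0.032, adjusted p = 0.00103 from limma).

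Both genes that were higher on S129 differed by little. Insig1, at chr5:28071363-28078662, had 40.3, 43.1, 39.2 and 30.1 RPKM on S129 and 34.3, 38.5, 35.3 and 27.4 RPKM on CAST. S129 was higher within every library, and the ranges of the alleles overlapped, with both alleles low in replicate 4. The log2 difference was 0.17 with a standard error of 0.033 (1.13-fold, adjusted p = 0.0114 from limma). Lss, at chr10:76531588-76557138, had 224, 262, 256 and 209 RPKM on S129 and 199.6, 221, 211 and 201 RPKM on CAST. Its log2 difference was 0.19 with a standard error of 0.050 (1.14-fold, adjusted p = 0.0288 from limma, S129 higher in 4 of 4 libraries). In replicate 4 the S129 share of Lss was 52.0%, whereas it was 53.7% to 55.8% in the other libraries. The call of Lss was lost without replicate 1 (adjusted p = 0.0822), without replicate 2 (0.105), without replicate 3 (0.100) or with no filter on low values (0.0575), all from limma, and that of Insig1 without replicate 2 (adjusted p = 0.0503 from limma). Without the pairing of alleles within libraries both calls were lost (adjusted p = 0.127 for Lss and 0.352 for Insig1, from limma).

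The other 3 genes were not called between the alleles. Hmgcs1, at chr13:119690379-119708260, had 865, 957, 915 and 690.3 RPKM on S129 and 851, 933, 927 and 670 RPKM on CAST. Its log2 difference was 0.02, with a 95% interval from -0.06 to 0.10, and 58273 reads in all stood behind it (adjusted p = 0.585 from limma). When the autosomal sums of all columns were set equal, the difference of Hmgcs1 was 0.12 and was called (adjusted p = 0.0370 from limma). This scaling moved the median of all autosomal genes by 0.10 towards S129. Sqle, at chr15:59315077-59331192, had 17.7, 20.8, 21.8 and 18.0 RPKM on S129 and 20.3, 21.9, 22.3 and 18.7 RPKM on CAST. Its log2 difference was -0.09 (95% interval -0.20 to 0.02, adjusted p = 0.131 from limma). Srebf2, at chr15:82147181-82205379, had 8.05, 9.65, 10.4 and 9.01 RPKM on S129 and 8.33, 10.3, 11.1 and 11.3 RPKM on CAST. In RPKM, CAST was higher in 4 of 4 libraries for both Sqle and Srebf2. For Sqle this rests on the division by allele totals, as S129 had 50.4% of its reads in replicate 3 and 50.1% in replicate 4. With equal autosomal sums the difference of Sqle was 0.014. The log2 difference of Srebf2 was -0.14 (95% interval -0.29 to 0.01, adjusted p = 0.0922 from limma) and was -0.08 without replicate 4. It did not pass the threshold with or without this library.

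**Figure D3:**
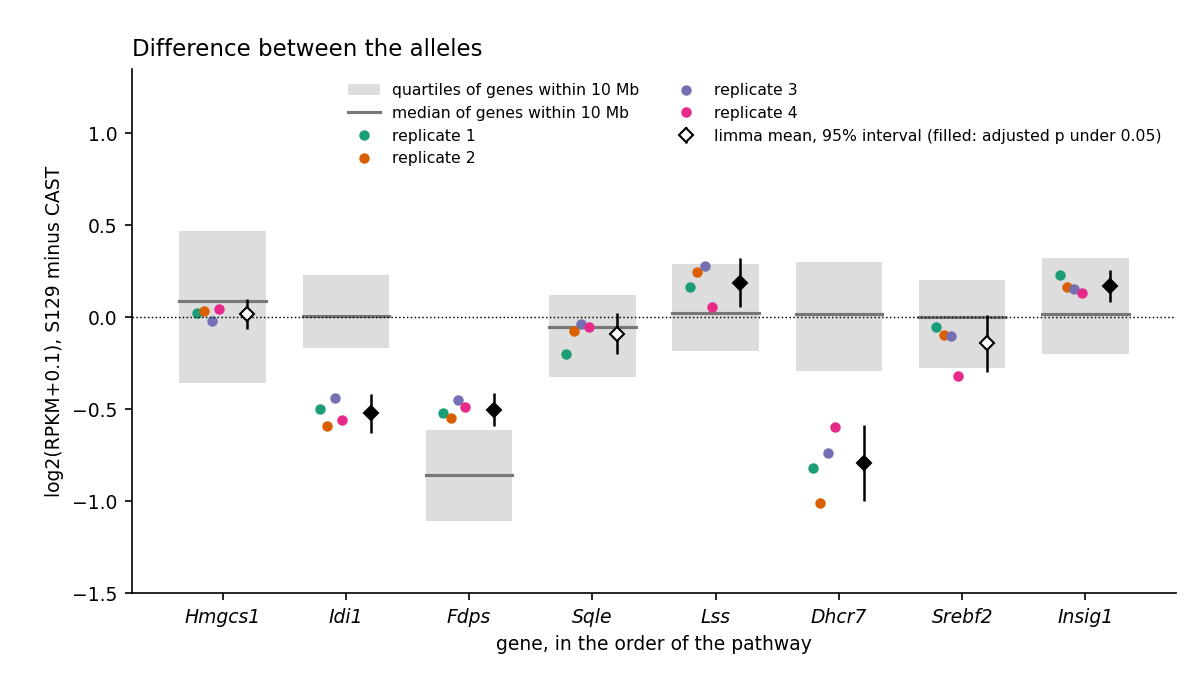
Difference of log2(RPKM+0.1) between the alleles (S129 minus CAST) of each gene, with 1 coloured point per library, the limma mean and its 95% interval as a diamond (filled where the adjusted p is under 0.05), and the median and quartiles of genes tested within 10 Mb in grey. Idi1 (-0.52) and Dhcr7 (-0.79) lie below the quartiles of their neighbours, whereas Fdps (-0.50) lies above its own (median -0.85).

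Some annotated genes share bases with these genes. Fdps shares 1124 of its 4208 exon bases with the protein-coding Gm43738 on the same strand. On the opposite strand, Gm48342 covers 557 exon bases of Hmgcs1, Gm48574 covers 323 of Idi1, and 4930483K19Rik covers 381 of Lss. The library kit marks strand, but the sources used here do not give how reads were counted, so reads in these bases cannot be assigned with certainty. Mir33, the miRNA in an intron of Srebf2, had a mean of 0.0767 RPKM, which in polyadenylated RNA is no measure of the mature miRNA.

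Between libraries, the median SD of the log2 level of the 8 genes was 0.19, beside 0.14 for all genes tested and 0.13 for genes of at least 5 RPKM, and 5 of the 8 were above the median of all genes tested. Idi1 had the largest SD, 0.28, which is above 91.6% of the genes tested. Fdps had the smallest, 0.08, above 15.7%. Hmgcs1, Insig1 and Dhcr7 had 0.21 to 0.22. Without replicate 4, the library with the fewest reads, the median SD was 0.098 for the 8 genes and 0.098 for all genes tested, and without replicate 1 it was 0.15 and 0.14. Without replicate 2 it was 0.21 and 0.14, and without replicate 3 0.18 and 0.14.

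In replicate 4, Hmgcs1, Idi1 and Insig1 fell furthest below their own means, on both alleles. Hmgcs1 had 242 of 1000000 allele-assigned reads there (exact 95% Poisson interval 237 to 247) and from 306 to 337 in the other libraries. Idi1 had 13.1 (11.9 to 14.4) against 18.5 to 20.2, and Insig1 had 77.7 (74.8 to 80.7) against 101 to 110.2. These intervals did not overlap with those of the other libraries, and they cover counting error only. Around its mean over the libraries, the log2 level in replicate 4 was -0.42 for Idi1 and -0.31 for both Hmgcs1 and Insig1, whereas the median gene of at least 5 RPKM stood at -0.10. Srebf2, at 0.06, and Fdps, at 0.00, were not low in this library. The summed levels of the embryonic stem cell markers (700.4 RPKM, against 806 to 876 in the other libraries) and of the primitive endoderm markers (5.42 against 6.20 to 6.32) were also lowest in replicate 4, and their part in the result was not tested. Replicate 4 held the lowest value for 5 of the 8 genes and for 58.7% of the 8009 genes of at least 5 RPKM, so the count alone does not set them apart. When each library was divided by its median ratio to the mean of all libraries, the median of the 8 genes in replicate 4 moved from -0.13 to -0.02, and 3 of them were lowest there. With the autosomal sums set equal instead, it moved the other way, to -0.19, and 6 of the 8 genes were lowest there. The position of the 8 genes in replicate 4 therefore depends on the scaling. Dhcr7 and Srebf2 had another pattern, with -0.26 and -0.24 in replicate 1, their lowest library on both alleles. The libraries are replicates of 1 condition, so no test between them was made.

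**Figure D4:**
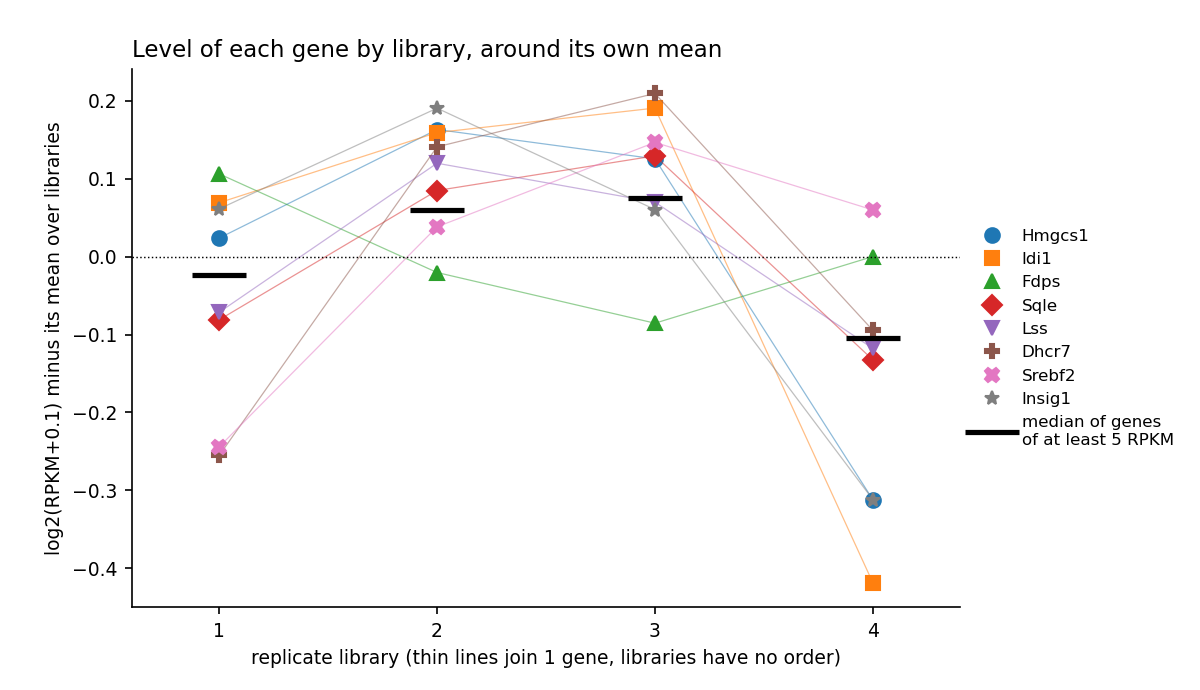
Level of each gene in replicate libraries 1 to 4 as log2(RPKM+0.1) of the mean of both alleles, minus the gene's own mean over the libraries, with the median of the 8009 genes of at least 5 RPKM as black bars. Idi1 (-0.42), Hmgcs1 and Insig1 (both -0.31) are lowest in replicate 4, Dhcr7 and Srebf2 are lowest in replicate 1, and Fdps is highest in replicate 1.

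Hmgcs1, Idi1 and Insig1, which were lowest in replicate 4 on both alleles, and Srebf2, which was not, are shown here with the 250 bases before their start, from RefSeq in the build GRCm38.p6. Promoters of 6 of the 8 genes were found, without Fdps and Sqle. Letters searched on both strands were CACNCCAC, a core of the sterol regulatory element that SREBP binds, CCAAT, the box of NF-Y, GGGCGG, the GC box, and CACGTG, an E-box. Matches, on either strand, stand in capitals, and none overlaps another.
Hmgcs1, chr13:119690101-119690350, plus strand: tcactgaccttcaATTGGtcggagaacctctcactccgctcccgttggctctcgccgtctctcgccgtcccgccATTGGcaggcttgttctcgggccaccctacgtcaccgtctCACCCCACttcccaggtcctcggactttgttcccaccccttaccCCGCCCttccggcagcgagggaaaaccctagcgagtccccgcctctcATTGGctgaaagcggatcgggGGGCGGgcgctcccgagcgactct
Idi1, chr13:8885356-8885605, plus strand: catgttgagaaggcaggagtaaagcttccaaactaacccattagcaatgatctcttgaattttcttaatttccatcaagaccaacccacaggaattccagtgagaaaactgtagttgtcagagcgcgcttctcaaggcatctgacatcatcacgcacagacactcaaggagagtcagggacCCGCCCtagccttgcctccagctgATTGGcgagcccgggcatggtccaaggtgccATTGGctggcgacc
Insig1, chr5:28071162-28071411, plus strand: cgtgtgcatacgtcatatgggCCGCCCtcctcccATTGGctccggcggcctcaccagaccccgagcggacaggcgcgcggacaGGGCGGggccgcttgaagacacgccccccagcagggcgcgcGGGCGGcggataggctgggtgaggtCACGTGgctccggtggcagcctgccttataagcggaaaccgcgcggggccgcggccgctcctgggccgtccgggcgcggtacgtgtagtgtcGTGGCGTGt
Srebf2, chr15:82147019-82147268, plus strand: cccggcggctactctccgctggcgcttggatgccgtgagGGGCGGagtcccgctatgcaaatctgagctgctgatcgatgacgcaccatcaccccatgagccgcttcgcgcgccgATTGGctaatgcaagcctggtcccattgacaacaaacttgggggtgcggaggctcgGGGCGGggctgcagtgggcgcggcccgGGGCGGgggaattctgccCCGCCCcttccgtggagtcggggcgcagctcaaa

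Hmgcs1 holds CACCCCAC, which begins 136 bases before its start, and Insig1 holds GTGGCGTG, a match on the other strand, in the last 9 bases before its start. The other 4 promoters, those of Idi1, Lss, Dhcr7 and Srebf2, hold no such match in these windows. Of all 32851 promoters of the same length, 5.29% hold it. NF-Y boxes stand in 5 of the 6 promoters, all but that of Dhcr7, and in 33.8% of all promoters. Hmgcs1 has 3 of them and Idi1 has 2. GC boxes stand in all 6 and in 32.7% of all promoters. Among 58 promoters of the pathway lists below, with 1 per gene and these 6 included, 62.1% hold an NF-Y box and 58.6% a GC box. The letters CACNCCAC stand in 6.90% of these 58. The 32851 promoters are not a like set: they belong to 27025 genes, with more than 1 for some, and were not limited to expressed genes. Whether this enters the difference in shares was not tested. Of the 6 promoters, the E-box stands only in that of Insig1, beside 6.02% of all promoters. GC content of the 6 windows was 51.2% to 73.6%. RefSeq and GENCODE place the starts apart, by 17 to 105 bases for these 6 genes, so the windows of Idi1, Lss, Dhcr7, Srebf2 and Insig1 reach past the first base that GENCODE gives. All matches of Idi1 and the GTGGCGTG of Insig1 lie past that base, so by GENCODE they are not before the start. The same holds for the GC boxes of Srebf2 that begin 79, 52 and 34 bases before its RefSeq start. A match is a string of letters and was not tested for binding. Only these exact letters were searched, so a window without a match may still hold a variant of the element.

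The pathway around these genes was described over 7 fixed lists with 82 genes, of which 75 are autosomal and passed the filter, 3 are X-linked and 4 stayed under the filter (Idi2, Vldlr, Npc1l1 and Cyp46a1). Of the 75, 19 were called higher on S129 and 35 higher on CAST, together 72.0%, beside the 61.4% of all autosomal genes. Their median difference was -0.10 and that of all autosomal genes -0.02. With the median of neighbouring genes within 10 Mb taken out, 44 of the 75 were called, beside 56.8% of all autosomal genes. The share called also depends on the level. With the filter at 5 RPKM summed over both alleles, 3347 of 9858 genes were called higher on S129 and 3540 higher on CAST. These counts include X-linked genes. With the autosomal sums of the columns set equal, the genes other than the 8 counted 21 in each direction, against 17 higher on S129 and 32 higher on CAST as deposited. Among the calls of all autosomal genes, the share higher on S129 was 47.1% as deposited and 60.3% with equal sums, so both moved towards S129.

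Among the 12 genes of the steps up to lanosterol, 11 were tested, 3 of them higher on S129 and 6 on CAST. Acat2, whose product joins acetyl-CoA units, had the largest difference of this list, -0.57 (standard error 0.077, adjusted p = 0.00359 from limma). Mvk, mevalonate kinase, at -0.25, Mvd, mevalonate diphosphate decarboxylase, at -0.18, and Fdft1, squalene synthase, at -0.28, were also higher on CAST. Mvd lies on chromosome 8 among genes with a median of -0.25 and was no longer called with it taken out (0.07, adjusted p = 0.204 from limma), nor without replicate 1 (0.0534), 2 (0.0632) or 4 (0.0526), without the pairing (0.275) or with equal autosomal sums (0.270).

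From lanosterol to cholesterol, 8 autosomal genes were tested, 2 higher on S129 and 4 on CAST. Cyp51, the lanosterol demethylase, had 39.2 ± 3.8 RPKM (SD, n = 4) and no call (-0.03, adjusted p = 0.488 from limma). Tm7sf2, a sterol reductase, differed by -0.79, as Dhcr7 did, with 13.98 RPKM on S129 and 24.1 RPKM on CAST (adjusted p = 0.00286 from limma). Nsdhl and Ebp, which remove methyl groups and shift a double bond, lie on the X chromosome. These male cells carry the S129 X only, and Nsdhl had 21.2 RPKM on S129 and 0.00690 on CAST. Ebp had 73.2 and 0.171 RPKM.

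Of the genes that control SREBP, 12 autosomal ones were tested, 3 higher on S129 and 5 on CAST. Srebf1, the paralog of Srebf2 that is best known for fatty acid synthesis, had 6.04 ± 0.66 RPKM (SD, n = 4), and 4.35 RPKM over all exons. It was higher on S129 (0.23, standard error 0.069, adjusted p = 0.0427 from limma), but the call was lost with any 1 library left out (adjusted p = 0.0573 to 0.121), without the pairing (0.142) and with no filter on low values (0.0729). Scap, which carries SREBP to the Golgi, had 42.1 ± 7.6 RPKM (SD, n = 4), but 3.50 RPKM over all exons, and no call (0.05, adjusted p = 0.613 from limma). Insig2, the paralog of Insig1, had 4.39 ± 0.86 RPKM (SD, n = 4) and, like Insig1, its lowest value in replicate 4. It was higher on CAST (-0.31, standard error 0.095, adjusted p = 0.0428 from limma), but the call was lost without replicate 1 (adjusted p = 0.132), 2 (0.102) or 4 (0.0862), without the pairing (0.239), with equal autosomal sums (0.135) and with no filter (0.0691). Over all exons Insig1 had 31.4 RPKM and Insig2 3.41 RPKM, values that also depend on the SNPs of each gene. The largest difference of this list was that of Rnf145, a ubiquitin ligase, at -0.44 (adjusted p = 0.000936 from limma).

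Uptake and transport inside the cell held 14 tested genes, 5 higher on S129 and 6 on CAST. Npc1, which moves cholesterol out of lysosomes, had 5.50 ± 0.49 RPKM (SD, n = 4) and was higher on CAST (-0.22, adjusted p = 0.0106 from limma). This call was lost without the pairing (adjusted p = 0.0892 from limma) and with equal autosomal sums (-0.12, adjusted p = 0.115). Stard4, a carrier of sterols between membranes, had the largest difference, 0.80 in favour of S129 (adjusted p = 0.000125 from limma).

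Export, oxysterols and esters held 10 tested genes, 2 higher on S129 and 3 on CAST. Abca1, which exports cholesterol, had 3.18 ± 0.10 RPKM (SD, n = 4) and was higher on S129 by 0.87 on the log2 scale (4.14 against 2.22 RPKM, adjusted p = 0.000240 from limma). In the isoprenoid branches, 2 of 9 genes were higher on S129 and 5 on CAST, and Fntb, a subunit of farnesyltransferase, led with 0.70. For fatty acid synthesis, 2 of 11 were higher on S129 and 6 on CAST.

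**Figure D5:**
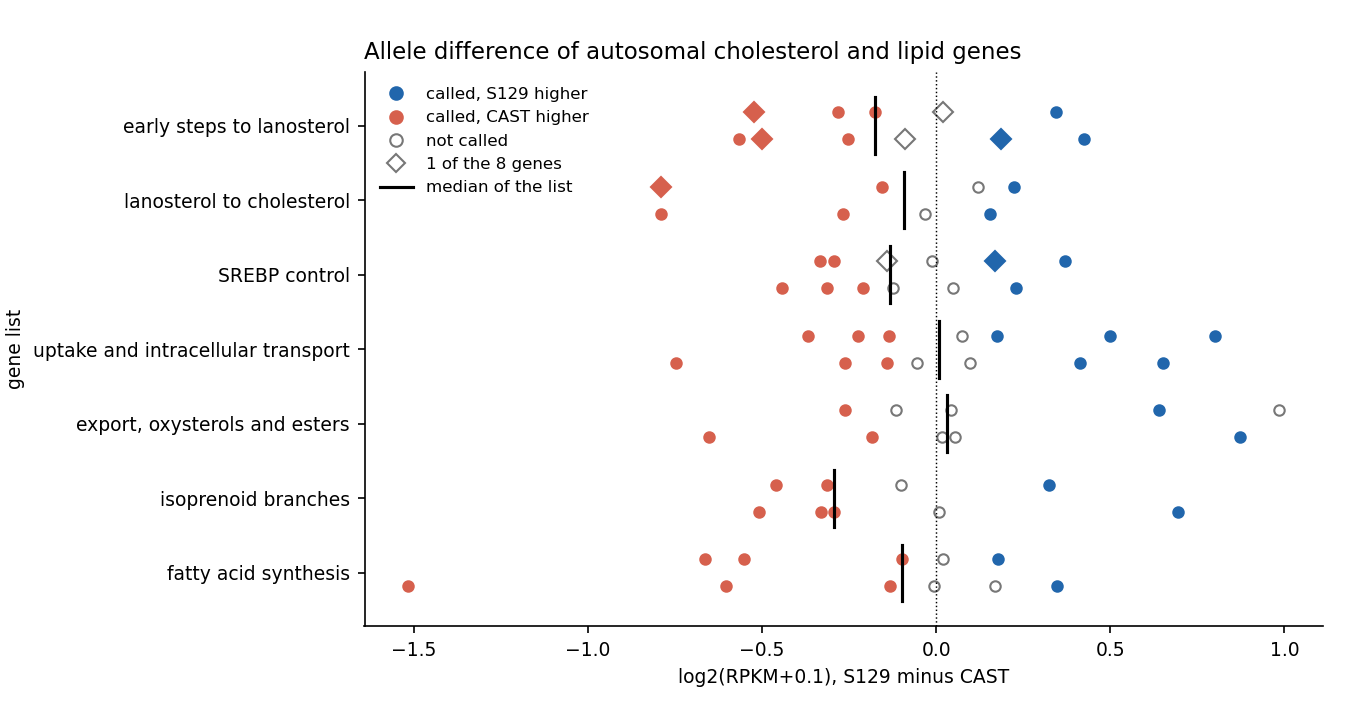
Difference of log2(RPKM+0.1) between the alleles (S129 minus CAST) for the 75 autosomal genes tested of 7 lists, filled where the adjusted p is under 0.05 and as diamonds for the 8 genes, with a bar at the median of each list. Both directions occur in every list, and the medians run from -0.29 for the isoprenoid branches to 0.03 for export, oxysterols and esters.

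Over the 4 libraries, likeness to the 8 genes was measured as the root mean square difference of a gene's centred log2 levels from their median. The nearest genes outside the lists were Nop9, Kpna6, Galnt2, Lrrc59 and Aplp2, at 0.0273 to 0.0276. Of the pathway genes chosen for their role, Cyp51 was nearest at 0.0400, with 610 genes nearer. Set against the median of the other 7, Lss (0.0575) and Sqle (0.0599) were the most alike, while Idi1, Srebf2 and Fdps were 0.170 to 0.174 away with 6637 to 6701 genes nearer. The 8 genes therefore shared no one profile over these libraries, and this likeness is a description over 4 values.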

How the data were processed

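RNAseq was measured in 4 libraries of untreated F123-ESCs. The authors deposited RPKM for each gene and allele, made from reads that were filtered of ribosomal RNA, trimmed by Trimmomatic (0.40), aligned by STAR to mm10 masked at SNPs, and split between S129 and CAST by SNPsplit. The authors' averages and log10 values were not used. How reads were counted on genes is not given in the sources used here.

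Totals of 16716721 to 28772351 reads per allele and library, and gene lengths, were recovered from the steps of the RPKM. A length came from the first transcript of GENCODE M21 for 17608 genes (87.0% of those above 0). That of Srebf2 was searched, and multiples of it would give more reads. Intervals cover counting error only, as reads carry no molecular identifiers.

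The alleles were compared by limma (3.58.1, R 4.3.3) on the difference of log2(RPKM+0.1) within each library, with Benjamini-Hochberg adjustment over 13341 genes of at least 1 RPKM summed over both alleles. Both columns of a number are reads of the same library, and their deviations from the allele means correlated (Pearson r 0.396 to 0.511 over 8009 genes). RPKM divide by the total of the allele, and the S129 total includes the X chromosome. The named genes are the 8 genes, pathway genes chosen for their role, in each list the autosomal gene with the largest called difference, and the 5 genes nearest in profile. Genes under the filter, the cell type markers named and the genes that overlap the 8 genes stand outside this rule. Some genes that the rule names are not reported here, though the counts over lists include them. The 8 genes, lists and motifs were chosen with earlier results of these data known. Alternatives were another pseudocount or filter, other scalings, no pairing, chromosome or regional medians taken out, a variance trend and each library left out. The recovery of reads and limma were tested on simulated data. No column belonged to another sample.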

Additional observations from a re-analysis of the deposited data

Results flagged for a closer look

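In replicate 4, the S129 share of Srebf2 was 45.4% (exact 95% binomial interval 43.1% to 47.8%, of 1721 reads), while the other libraries lay between 49.2% and 49.9%. Nsdhl, an X-linked gene of late cholesterol synthesis, had 12.1 RPKM as the mean of both alleles in replicate 2 and from 10.0 to 10.3 RPKM in the other libraries. In both cases 1 of 4 values stood further from its neighbour than Dixon's critical value allows. There were 28 such values examined, and chance marks about 1 in 20.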

How the results depend on the processing

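Of 112 allele differences of the 8 genes under the alternatives, 100 had the same sign and stayed on the same side of the threshold. As deposited, 2 of the 8 genes were called higher on S129. This count was 0 without the replicate block (the pairing of alleles within a library), 1 with no filter on low values, and 0 to 2 with each replicate left out. It was 3 with the autosomal sums set equal and with the median of the chromosome or of the region taken out. The 3 called higher on CAST stayed between 2 and 3, and Dhcr7 and Idi1 were called under all alternatives. Of the other pathway genes, 32 were higher on CAST as deposited, 17 without the replicate block and 21 with the autosomal sums set equal. Among all autosomal genes, the last setting moved the share of calls that were higher on S129 from 47.1% to 60.3%. The median SD of the 8 genes between libraries was 0.19, and 0.098 to 0.21 with each replicate left out. It was 0.24 with the autosomal sums equal and 0.15 with the median ratio, beside 0.18 and 0.11 for all genes tested. Signs reversed with the median of the chromosome taken out for Fdps (0.22) and Mvd (0.058), and with that of the region taken out for Hmgcs1 (-0.053), Fdps (0.35), Cyp51 (0.074) and Mvd (0.066). With the autosomal sums equal they reversed for Sqle (0.014) and Cyp51 (0.072), with reads not divided by the total (added after seeing the data) for Cyp51 (0.024), and without replicate 4 for Scap, which had -0.039 to 0.085 with each replicate left out. Of these, only Fdps was called with a reversed sign. The cause was not tested. Depth limits Idi1 and Dhcr7 most, with 184 and 301 reads on S129 in replicate 4.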
